A study of Mus musculus with 22 samples.

Results

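Histone marks and RNA were compared gene by gene at embryonic day 13.5 (E13.5) in mouse telencephalon of strain ICR, using 8 of the 22 samples of the series. These were 2 libraries each of H3K9ac, H3K9cr and H3K18la ChIP-seq and 2 RNA-seq libraries, all stated to be biological replicates, with no treatment or allele named in the labels. The ChIP was native, that is, without crosslinking, RNA was extracted with Trizol, and the sources used here do not give the number of embryos behind a library. The p-values below therefore measure only the spread between these libraries. For each of 20846 protein-coding genes, out of 21900 in the RefSeq annotation of the GRCm38 mouse genome, the RNA level was taken as CPM, the gene's count scaled to a fixed library total. Mark strength was the highest fold enrichment, and mark width the summed length, of all peaks that touched the gene span or the 2 kb on either side of it. A gene with at least 1 such peak is called marked. A peak was counted whole, also where it reached beyond the window, and it was counted for every gene window it touched. E16.5 mark and RNA libraries and E13.5 ATAC-seq, which maps open chromatin, were used only for comparison, and the 4 input libraries were not analysed here.

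Acetyl, crotonyl and lactyl groups are attached to the same kind of residue, lysine, in the tails of histones, and they neutralise its positive charge. Acetylation of H3 lysine 9 is a classical mark of active promoters and enhancers. Crotonylation of that lysine and lactylation of H3 lysine 18 are acyl marks that draw on metabolic intermediates, crotonyl-CoA and lactate, and have likewise been mapped to active genes. In the telencephalon at this age, dividing radial glia line the ventricles and produce intermediate progenitors and neurons, excitatory ones in the cortex and inhibitory ones in the ventral ganglionic eminences.

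The RNA libraries held 17059544 and 18485855 counts, of which 94.6% fell on the genes used. The H3K9ac lists held 37319 and 34532 peaks, those of H3K9cr 32567 and 28968, and those of H3K18la 73369 and 69157. Median fold enrichments over peaks were 8.43 and 8.53, 12.2 and 14.4, and 4.58 and 4.81 in that order, so fold values of different marks are on different scales. Read depth behind the peak lists is unknown here. Between 66.1% and 69.8% of genes were marked in a library. Ranks of genes in the 2 libraries of a kind correlated with a Spearman's rho of 0.990 for RNA over all genes. For fold enrichment over genes marked in both libraries, it was 0.937 for H3K9ac, 0.946 for H3K9cr and 0.858 for H3K18la. The 12 regulators listed for telencephalon identity all had at least 10 CPM, while none of the 39 Hox genes, which pattern the hindbrain and spinal cord, exceeded 0.0293 CPM. CPM is not corrected for transcript length, so differences in level between genes also carry their lengths.

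The promoters of 4 genes, chosen after their values were seen, show the patterns described below: a wide mark of modest height (Dlx2), a tall and narrow one (Cox7c), no peak at high RNA (Hba-a1), and both H3K9 marks without H3K18la (Eif3c). Each run is the RefSeq promoter of build GRCm38.p6 from 250 bases before the annotated start to 50 bases after it, 5′ to 3′ on the gene's strand, with CG dinucleotides in capitals. Dlx2 lay at chr2:71546705-71547004 on the minus strand with 29 CG dinucleotides, and Cox7c at chr13:86046746-86047045 on the minus strand with 14. The Hba-a1 promoter at chr11:32283422-32283721 on the plus strand held 4, and that of Eif3c at chr7:126566317-126566616 on the minus strand held 17. The stretches of Dlx2 and Cox7c overlapped a peak of every mark in both libraries. That of Eif3c overlapped H3K9ac and H3K9cr peaks in both libraries and no H3K18la peak, and that of Hba-a1 overlapped none.
Dlx2: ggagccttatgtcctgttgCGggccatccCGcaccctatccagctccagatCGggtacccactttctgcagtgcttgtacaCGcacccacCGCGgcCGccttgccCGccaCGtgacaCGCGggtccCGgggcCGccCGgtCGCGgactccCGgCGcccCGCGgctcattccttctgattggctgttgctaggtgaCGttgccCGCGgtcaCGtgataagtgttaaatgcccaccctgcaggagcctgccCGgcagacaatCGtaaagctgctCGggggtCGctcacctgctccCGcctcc
Cox7c: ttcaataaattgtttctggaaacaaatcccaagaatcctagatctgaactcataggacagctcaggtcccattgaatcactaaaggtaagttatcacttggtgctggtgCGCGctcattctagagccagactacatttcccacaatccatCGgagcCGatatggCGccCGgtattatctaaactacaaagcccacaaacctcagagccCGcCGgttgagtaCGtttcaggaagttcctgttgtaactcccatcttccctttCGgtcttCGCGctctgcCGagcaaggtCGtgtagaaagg
Hba-a1: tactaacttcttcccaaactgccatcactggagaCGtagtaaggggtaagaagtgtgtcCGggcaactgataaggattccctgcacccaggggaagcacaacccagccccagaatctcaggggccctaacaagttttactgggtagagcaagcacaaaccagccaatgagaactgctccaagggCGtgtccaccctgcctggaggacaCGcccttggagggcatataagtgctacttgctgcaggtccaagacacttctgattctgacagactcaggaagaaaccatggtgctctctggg
Eif3c: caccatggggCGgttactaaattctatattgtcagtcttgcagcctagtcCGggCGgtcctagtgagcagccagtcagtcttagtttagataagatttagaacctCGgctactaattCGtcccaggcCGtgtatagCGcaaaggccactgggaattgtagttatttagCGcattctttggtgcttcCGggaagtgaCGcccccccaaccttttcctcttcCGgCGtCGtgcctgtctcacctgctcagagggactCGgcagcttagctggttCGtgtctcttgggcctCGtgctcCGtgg

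Genes with more RNA were more often marked, for all 3 marks. Of 4839 genes with 0 counts in both RNA libraries, 8.12% and 7.71% were marked by H3K9ac in the 2 libraries. The share was 89.7% and 88.3% of 2985 genes at 1 to 10 CPM and 99.1% and 99.2% of 7217 genes at 10 to 100 CPM. H3K9cr shares were close to these, with 8.45% and 7.48%, 90.7% and 88.6%, and 99.2% and 99.1% in the same classes. H3K18la marked 10.9% and 10.5% of the genes with 0 counts, which was more than either H3K9 mark. It marked fewer of the genes at 1 to 10 CPM, with 79.2% and 80.9%, and 98.5% and 99.2% of the 2511 genes at 100 CPM and over.

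**Figure D1:**
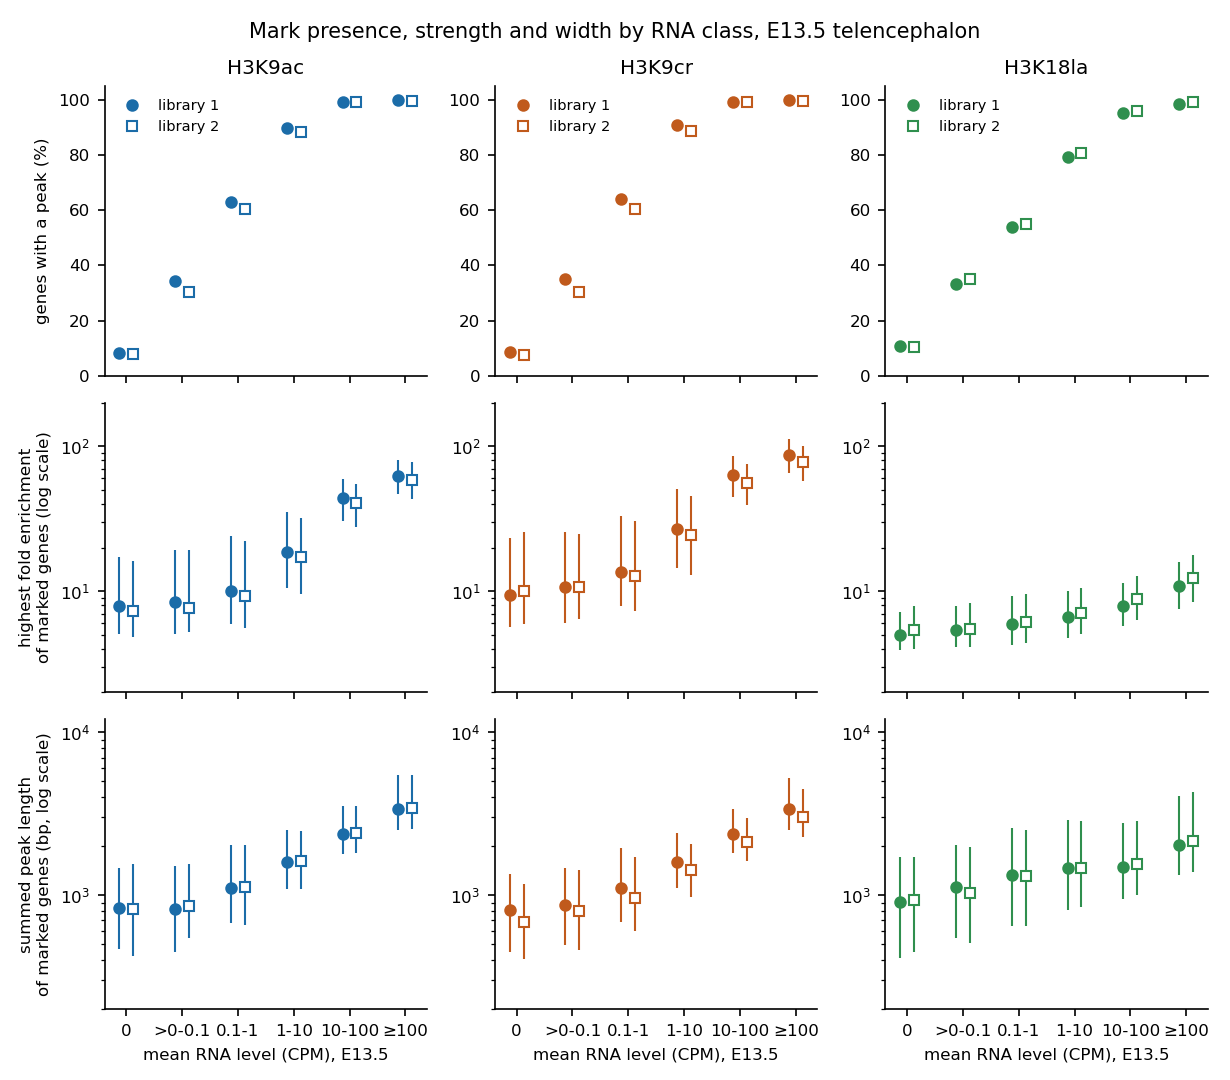
Share of genes with a peak (top, %), highest fold enrichment of marked genes (middle, log scale) and summed peak length of marked genes (bottom, bp, log scale) by mean RNA level in CPM, for H3K9ac, H3K9cr and H3K18la. Filled circles and open squares are libraries 1 and 2, points in the lower rows are medians and bars span the middle 50% of genes; fold enrichment climbs steeply for both H3K9 marks above 1 CPM and little for H3K18la.

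Among marked genes, the strength of both H3K9 marks was graded with RNA, and that of H3K18la much less so. The median H3K9ac fold enrichment was 7.93 and 7.29 in genes with 0 counts, 18.7 and 17.1 at 1 to 10 CPM, 44.1 and 40.3 at 10 to 100 CPM, and 62.3 and 58.6 at 100 CPM and over. From the lowest to the highest class it differed 7.86-fold and 8.04-fold. H3K9cr was 9.27-fold and 7.72-fold higher over the same classes, from 9.46 and 10.1 to 87.6 and 77.6. H3K18la was 2.18-fold and 2.32-fold higher, from 4.99 and 5.36 to 10.9 and 12.4. The step that separated the marks most lay between 1 to 10 and 10 to 100 CPM, where the ratio was 2.36 and 2.35 for H3K9ac and 1.19 and 1.27 for H3K18la. From 10 to 100 CPM to the highest class all 3 marks had ratios between 1.38 and 1.45. The order of the classes was the same in both libraries of each mark.

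Width followed RNA too, over the whole range less steeply than strength for the H3K9 marks and about as steeply for H3K18la. The summed H3K9ac peak length of a marked gene had a median of 831 and 821 bp at 0 counts and 3376 and 3420 bp at 100 CPM and over, a ratio of 4.06 and 4.17. For H3K9cr the ratio was 4.17 and 4.41. H3K18la was already wide at low RNA, with 909 and 937.5 bp at 0 counts, and reached 2044.5 and 2163 bp, a ratio of 2.25 and 2.31. Between 1 to 10 and 10 to 100 CPM its width hardly moved, with ratios of 1.02 and 1.05, against 1.49 and 1.48 for H3K9ac.

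Across marked genes, Spearman's rho between fold enrichment and mean CPM was 0.633 ± 0.005 for H3K9ac, 0.624 ± 0.008 for H3K9cr and 0.355 ± 0.030 for H3K18la (SD, n = 2 libraries). For width it was 0.538 ± 0.003, 0.561 ± 0.001 and 0.215 ± 0.021. These correlations are across genes within a library. Genes are not independent replicates, the libraries share the same RNA values, and no p-value was computed. H3K18la stood below both H3K9 marks in each library. Over the 12721 genes marked in all 6 libraries, the fold correlations were 0.562 and 0.565 for H3K9ac, 0.549 and 0.552 for H3K9cr, and 0.259 and 0.299 for H3K18la. With the lists cut to 28968 peaks each, the value of H3K18la was 0.241, against 0.613 and 0.620 for H3K9ac and H3K9cr. Treating unmarked genes as 0, which folds presence and strength together, raised the 3 values to 0.835, 0.832 and 0.708.

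The relation persisted among well expressed genes. Within the 9728 genes of at least 10 CPM, of which over 95% were marked in every library, the fold correlations were 0.413 and 0.421 for H3K9ac, 0.389 and 0.393 for H3K9cr, and 0.241 and 0.262 for H3K18la. When these genes were cut into 10 equal groups by RNA, the lowest and the highest had median levels of 12.5 and 314 CPM. Between them, the median H3K9ac fold enrichment went from 32.8 and 30.4 to 71.3 and 67.5. For H3K18la it went from 7.49 and 8.25 to 12.5 and 14.3.

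Width, more than height, went with gene span. H3K18la width correlated with gene span at 0.381 and 0.375, more than with RNA, whereas the values for H3K9ac were 0.197 and 0.198. Fold enrichment correlated with span between -0.054 and 0.133 for the 3 marks. Of 5 equal groups of genes by span, in the shortest, up to 4583 bp, the rho of H3K18la width with RNA was 0.263 and 0.295. In the longest, from 59107 bp, it was 0.135 and 0.171. H3K9ac width gave 0.546 and 0.532 in the shortest and 0.523 and 0.532 in the longest group. The longest single H3K9ac peak followed RNA more closely than the summed length, with 0.597, and so did that of H3K9cr, with 0.611. Expressed as a share of the window, all 3 widths correlated weakly, at 0.239, 0.233 and 0.111.

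The strongest peak of a gene lay near an annotated start site more often where RNA was high. Start sites were listed for 80.2% of genes. The summit of the strongest H3K9ac peak was within 1000 bp of one in 88.4% and 87.4% of marked genes at 100 CPM and over, and in 25.3% and 23.7% of those with 0 counts. H3K18la summits were near a start in 74.1% and 75.9% of the former and 16.7% and 15.9% of the latter, at a median distance of 6801.5 and 6650 bp. Where a start was listed, the strongest peak in the window of a gene with 0 counts thus mostly lay away from it.

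The same comparison was made at E16.5 to ask whether the relation at E13.5 stood apart. For fold enrichment, rho at E16.5 was 0.560 ± 0.002 for H3K9ac, 0.556 ± 0.002 for H3K9cr and 0.318 ± 0.009 for H3K18la (SD, n = 2 libraries). It was higher at E13.5 by 0.073, 0.068 and 0.037, and the libraries of the stages did not overlap. For width the difference was 0.026 for H3K9cr, without overlap, and 0.006 and -0.013 for H3K9ac and H3K18la, with overlap. Of these 6 comparisons, the exact two-sided permutation test gave p = 0.333 for the 4 without overlap, the smallest value that 2 against 2 libraries allow, and 0.667 for the others, or 0.500 and 0.667 after Benjamini-Hochberg adjustment over the 6. The design cannot separate the stages at a threshold of 0.05. The H3K9ac and H3K9cr lists held more peaks at E16.5, between 41074 and 50668, and the part of this in the difference was not tested.

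**Figure D2:**
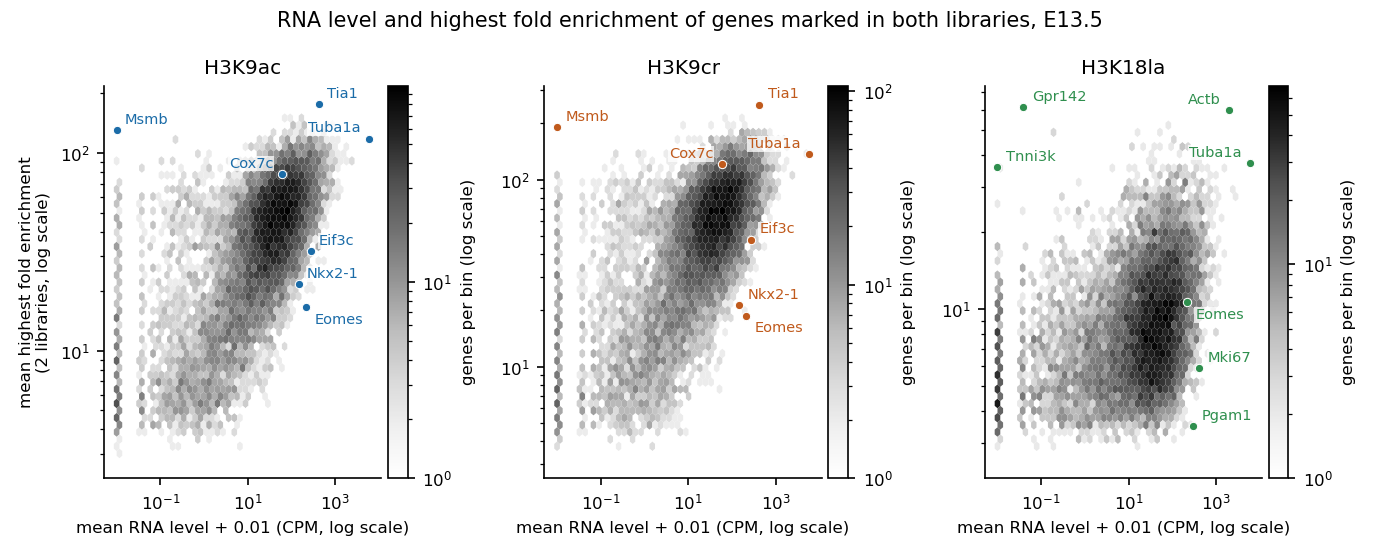
Mean RNA level plus 0.01 (CPM, log scale) against mean highest fold enrichment over the 2 libraries (log scale) for genes marked in both E13.5 libraries; shading counts genes per bin on a log scale and coloured points are genes named in the text. The cloud slopes upward for H3K9ac and H3K9cr and is broad and flat for H3K18la, with Msmb, Gpr142 and Tnni3k far above it at the left.

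The strongest H3K9ac signal by mean fold enrichment belonged to Tia1, Kmt2e, Sema4c, Tsc22d1 and Marcks. Tia1 (ENSMUSG00000071337.11, chr6:86404203-86433405), which encodes an RNA-binding protein of stress granules, had H3K9ac values of 182 and 172, H3K9cr values of 261 and 243.5 and H3K18la values of 20.4 and 20.3, at 414 and 435 CPM. Its H3K9ac width was ordinary, at 3648 and 3640 bp. Kmt2e, a chromatin regulator of the trithorax family, had H3K9ac values of 159 and 177. Sema4c, a semaphorin, led H3K9cr with 260.4 and 248 at 119 and 121 CPM. In H3K9cr it was followed by Tia1, the zinc finger genes Zkscan1 and Zfp157 and the Krüppel-like factor Klf7. None of these genes was among the 10 with the highest RNA.

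H3K18la had other leaders. Cfl1, which encodes cofilin, and its neighbour Mus81, a DNA repair nuclease, shared 1 peak with values of 63.5 and 63.0, although Cfl1 stood at 983.5 and 1013 CPM and Mus81 at 37.5 and 31.7 CPM. Diaph1, a formin that assembles actin, had 61.0 and 61.5. Btbd17 and Gpr142 also shared a peak. Actb, the gene of β-actin, reached 54.1 and 65.8, and Tubb2b, a tubulin of young neurons, 54.2 and 62.7. Actb lay at 1924 and 1962 CPM and Tubb2b at 2588 and 2669 CPM.

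The widest genes had long spans. Gse1, a chromatin-associated protein, was the widest gene for all 3 marks, with 107379 and 90408 bp of H3K9ac, 65403 and 48028 bp of H3K9cr and 166656 and 165125 bp of H3K18la, at 377 and 356 CPM. Nfia, a nuclear factor of gliogenesis and cortical development, had 72926 and 66068 bp of H3K9ac, and Tcf4 had 69527 and 64787 bp. Auts2, a neurodevelopmental gene, and Prdm16, a regulator of neural stem cells, completed the first 5 for H3K9ac, and Meis2, a homeobox gene of the ventral telencephalon, was in the first 5 for H3K9cr. So was Gm37013, a model with 0 counts whose span of 889226 bp includes protocadherin gamma genes. For H3K18la the first 5 were Gse1, Auts2, Nfia, the teneurin Tenm4 and the Reelin adaptor Dab1. Prdm16 was wide without being tall: its H3K9ac fold enrichment was 26.5 and 32.5 at 117 and 123.5 CPM.

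None of the 10 genes with the most RNA was among the first 5 of any mark in strength or width, though some were strongly marked. The top 10% of marked genes began at H3K9ac values of 77.4 and 74.6 in the 2 libraries. Tuba1a, a tubulin of growing neurons, stood first at 5789 and 5853 CPM and had H3K9ac values of 98.0 and 138. The elongation factor Eef1a1, at 5229 and 5099 CPM, had H3K9ac values of 99.4 and 91.7 and H3K18la values of 11.2 and 19.7. Eef2, another elongation factor, had 2874 and 2831 CPM and H3K18la values of only 8.74 and 8.66. Tubb2b and Tuba1a thus exceeded Eef1a1 and Eef2 in H3K18la in both libraries, while Eef1a1 had more RNA than Tubb2b. The other genes among the first 10 by RNA were Tubb5, Actg1, Ptma, Map1b, Hsp90ab1 and Sox11.

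To describe genes at equal RNA, each gene of at least 10 CPM was ranked from 0 to 100 among the 200 genes nearest to it in mean CPM, with unmarked genes at 0. By construction the median over all genes was 50. A gene was called low and wide when its fold rank was at most 25 and its width rank at least 75, and tall and narrow in the reverse case. For H3K9ac, 672 of 9728 genes (6.91%) were low and wide and 398 (4.09%) tall and narrow. For H3K9cr these were 7.04% and 4.64%, and for H3K18la 0.689% and 0.75%. Neighbours in RNA level were chosen after values were seen, and the gene lists below hold genes known from earlier results on these data, so their counts are descriptions. The examples Dlx2, Neurog2, Neurod6, Cox7c, Rpl32, Ldha, Rps27, Eno1, Eif3l, Fxyd1 and Gfap were picked after their values were seen.

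Regulators of brain identity carried wide H3K9 marks of modest height. All 12 genes of the telencephalon identity list were marked in every library, with a median fold rank of 15.8 for H3K9ac and 8.25 for H3K9cr and median width ranks of 95.8 and 97.5. Low and wide were 9 of 12 for H3K9ac, against 6.91% of all genes of that level, 10 of 12 for H3K9cr, against 7.04%, and 4 of 12 for H3K18la, against 0.689%.

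Dlx2 (ENSMUSG00000023391.8, chr2:71543408-71546754), a homeobox gene of inhibitory neuron precursors, showed the common pattern, with 292 and 308 CPM, H3K9ac values of 47.6 and 45.02 and widths of 22531 and 23450 bp. That H3K9ac peak also covered its neighbour Dlx1, so the pair shares its values. Nkx2-1, the homeobox gene of the medial ganglionic eminence, had 139 and 151.5 CPM, H3K9ac values of 29.5 and 13.8 and widths of 12416 and 12307 bp. Its fold rank was 1 for H3K9ac and 0.5 for H3K9cr, and its width ranks were 94.5 and 98. H3K18la on Nkx2-1 was both low, at 4.58 and 4.38, and narrow, at 777 and 2317 bp. Nkx2-1 is expressed in the ventral telencephalon only, and in bulk tissue fewer cells of a type and less RNA or mark per cell cannot be told apart.

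Radial glia genes, of which Pax6, Emx2 and Lhx2 are also in the identity list, were similar. The median fold ranks of 15 genes were 17.5 and 10.5 for the H3K9 marks, and the width ranks 93.5 and 94.5. Low and wide were 5 for H3K9ac and 8 for H3K9cr, against 6.91% and 7.04% of all genes of at least 10 CPM. Pax6, a regulator of cortical radial glia, had 117 and 123 CPM, H3K9ac values of 33.9 and 36.5 and 22237 and 23714 bp. Sox2, the neural stem cell factor, spread over 32236 and 32340 bp with values of 57.2 and 56.2. Prom1, a membrane protein of progenitors, went the other way, with 80.6 and 94.1 over 2769 and 2598 bp. For H3K18la the list had a median fold rank of 65, above the middle, and a width rank of 90.

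Intermediate progenitor genes were the lowest of the neural lists in H3K9ac and H3K9cr height, with median fold ranks of 7 and 5 over 9 genes, and width ranks of 79.5 and 81. Their H3K18la fold rank was 88. Eomes (ENSMUSG00000032446.14, chr9:118478186-118486132), the T-box factor that defines these cells, had 231 and 197 CPM but H3K9ac values of 16.7 and 16.6, lower than in any of its 200 neighbours in RNA. Its H3K18la values of 9.54 and 11.7 ranked at 41.5. Neurog2, a proneural factor, had 180.5 and 164 CPM with H3K9ac values of 15.2 and 19.0. Btg2, an antiproliferative gene of neurogenic divisions, was again an exception, with 108 and 90.6 at only 86.9 and 85.7 CPM. Btg2 ranked at 94.5 for H3K9ac and 98.5 for H3K18la.

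Neuronal genes, of which Tbr1 is also in the telencephalon identity list, likewise ranked low in H3K9 strength and high in width at equal RNA. The 14 genes of neuron identity had median fold ranks of 18.2 for both H3K9ac and H3K9cr and of 75 for H3K18la, with width ranks from 88.2 to 91.8. Their spans are long, with a median of 84827.5 bp, and with neighbours matched on span alone the H3K9 fold ranks were 56.5 and 49.5. Matched on RNA and span together, they were 25.5 and 20.8. Neurod2 and Neurod6, factors of excitatory neurons, had 413 and 371 CPM with H3K9ac values of 35.7 and 36.0, and 442 and 397 CPM with 52.6 and 55.9. Tubb3, the neuronal tubulin, stood high, with 121.5 and 135 at 1403 and 1486 CPM. The 10 genes of the inhibitory lineage, which share Dlx1 and Dlx2 with the identity list, had median H3K9 fold ranks of 20.2 and 11 and width ranks of 96.8 and 97.2. The 15 synapse genes had fold ranks of 11 and 8 and width ranks of 81.5 and 85. Their spans are also long, with a median of 68990 bp. Width ranks of the synapse list were 59.75 and 66 with span alone matched, and 76 and 65.5 with RNA and span matched. By the longest single peak, the list ranked at 71.5 for H3K9ac and 50 for H3K9cr. Slc17a7, a vesicular glutamate transporter, had H3K9ac values of only 12.3 and 5.78 at 57.0 and 43.0 CPM. In H3K18la the synapse list ranked at 61.

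**Figure D3:**
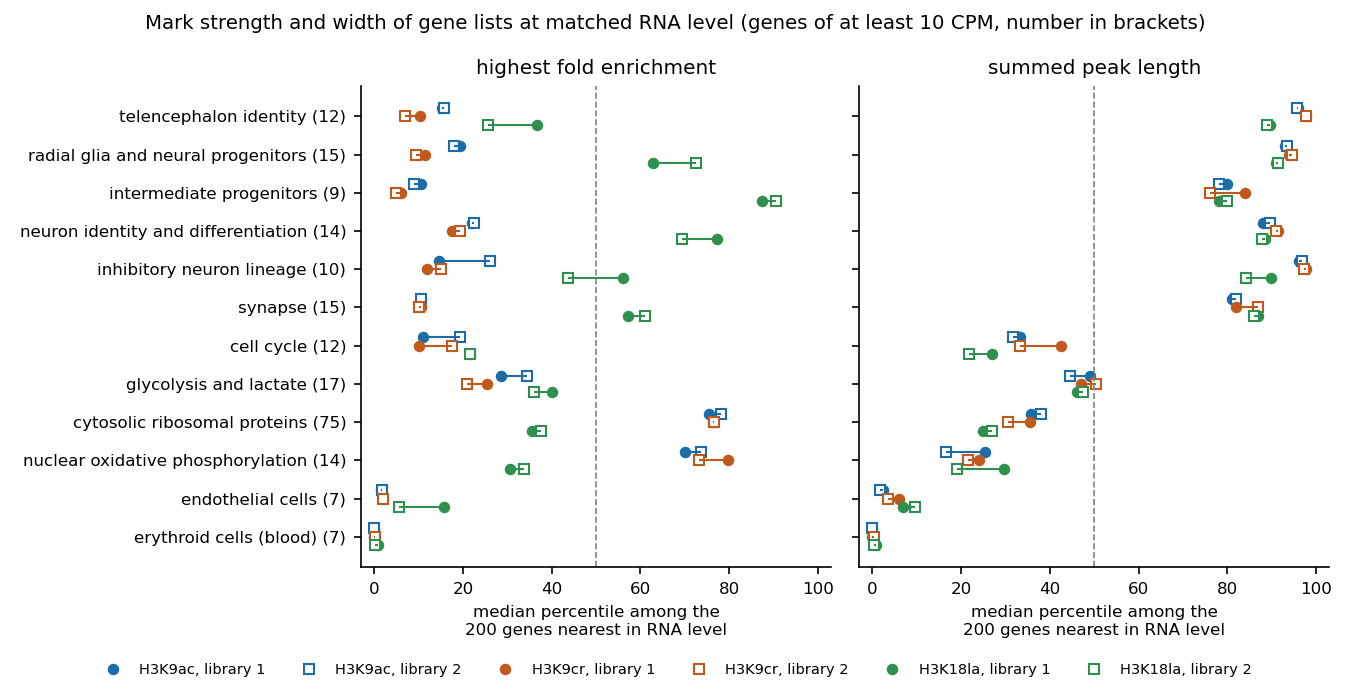
Median percentile of each gene list among the 200 genes nearest in RNA level, for highest fold enrichment (left) and summed peak length (right); circles and squares are libraries 1 and 2, colours are marks, and the dashed line at 50 is the median of all genes. Neural lists sit left of the line for H3K9ac and H3K9cr strength and right of it for width, and ribosomal and oxidative phosphorylation genes show the reverse.

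Ribosomal protein genes stood high in H3K9 strength and below the middle in width at equal RNA. Of 80 cytosolic ribosomal protein genes, 75 had at least 10 CPM, and all 75 were marked by each mark in both libraries, as were 99.2% of all genes of that level by H3K9ac. Their median fold ranks were 78.5 for H3K9ac and for H3K9cr and 37 for H3K18la, and their width ranks 35.5, 33 and 24. Tall and narrow were 12 for H3K9ac and 15 for H3K9cr, against 4.09% and 4.64% of all genes, and 0 for H3K18la. Rpl32 had 215 and 214 CPM, H3K9ac values of 76.1 and 79.3, H3K18la values of 7.04 and 7.49 and an H3K18la width of 993 and 1083 bp. Ribosomal protein genes are short, with a median span of 3179 bp against 17986.5 bp over all genes. With neighbours matched on RNA and span together, their fold ranks were 72.5, 75 and 43.5 and their width ranks 42, 40 and 36.2, so the low width ranks moved towards the middle. Matched on span alone, the width ranks were 56.5, 55 and 54.5, above the middle. Ribosomal genes have processed copies elsewhere in the genome, and the division of reads among them is not described.

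The nuclear genes of oxidative phosphorylation, the mitochondrial respiratory chain and ATP synthase, had fold ranks on the same side. The 14 with at least 10 CPM had median fold ranks of 70.5 (H3K9ac), 79.5 (H3K9cr) and 27.8 (H3K18la), and width ranks of 19.4, 20.5 and 23.8. Tall and narrow were 4 for H3K9ac and 4 for H3K9cr, against 4.09% and 4.64% of all genes of that level. With neighbours matched on span alone, the width ranks were 39.5, 42 and 38.5. Matched on RNA and span together, they were 32.75, 33.5 and 25.5. Cox7c (ENSMUSG00000017778.14, chr13:86044798-86046795), a small subunit of cytochrome oxidase, had 57.0 and 60.8 CPM, H3K9ac values of 97.4 and 59.5 and widths of 1228 and 1341 bp. Cycs, the gene of cytochrome c, had H3K9ac values of 86.9 and 86.3. Atp5b, an ATP synthase subunit at 784 and 776.5 CPM, had H3K9ac values of 90.0 and 91.4 but H3K18la values of only 6.03 and 6.32, a fold rank of 2.

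Glycolysis genes, whose end product lactate gives H3K18la its name, had a median H3K18la rank below the middle. The 17 measured genes had median fold ranks of 30 (H3K9ac), 22.5 (H3K9cr) and 38.5 (H3K18la), and width ranks of 46.5, 44 and 46. The highest, Pkm, a pyruvate kinase at 1229 and 1197 CPM, had H3K18la values of 22.3 and 30.4, a rank of 80.5. Gapdh, at 369 and 315 CPM, had H3K18la values of 10.6 and 19.9. Ldha, the lactate dehydrogenase subunit, had 235 and 225 CPM and H3K18la values of 5.39 and 5.16, a rank of 4. Pgam1, a glycolytic mutase, had 305 and 289 CPM and H3K18la values of 2.85 and 4.14. Pfkp, a phosphofructokinase, had H3K9ac values of 9.51 and 9.34, lower than in any of its neighbours in RNA.

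At equal RNA, cell cycle genes ranked low in the strength of every mark and were not wide. The 12 genes had median fold ranks of 14 (H3K9ac), 9.25 (H3K9cr) and 21.8 (H3K18la), and width ranks of 32.6, 37.5 and 24.5. Mki67 (ENSMUSG00000031004.8, chr7:135689784-135716450), a protein of dividing cells, had 416 and 409 CPM, H3K9ac values of 35.0 and 35.7, ranked at 4, and H3K18la values of 4.97 and 6.79, also ranked at 4. Ccnd2, a cyclin of radial glia, was low but wide, with 52.4 and 57.0 over 10558 and 8786 bp. The width ranks depended on the neighbours: for the H3K9 marks they were 64.5 and 69 with span alone matched, and 42.2 and 49.1 with RNA and span matched.

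**Figure D4:**
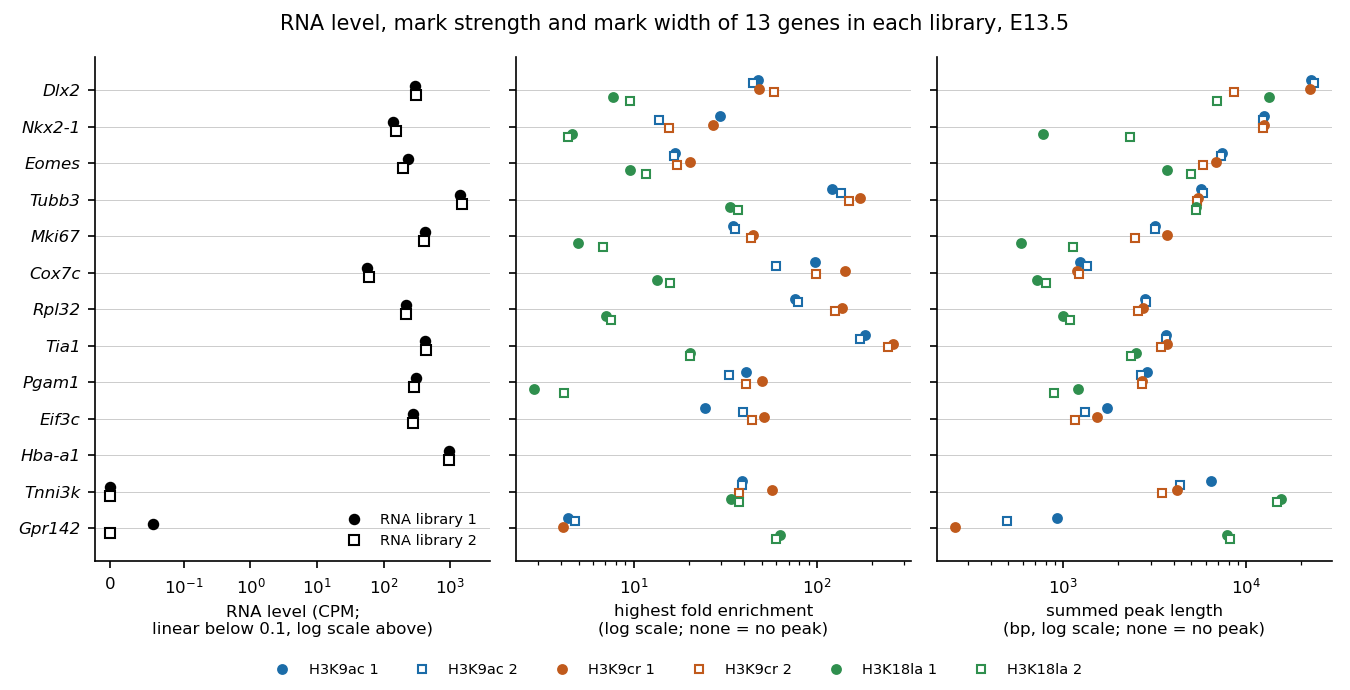
RNA level (left; CPM, linear below 0.1 and logarithmic above), highest fold enrichment (middle, log scale) and summed peak length (right; bp, log scale) of 13 genes in each E13.5 library; filled circles are library 1, open squares library 2, colours are marks, and no symbol means no peak. Dlx2, Nkx2-1 and Eomes have less H3K9ac height and more width than Cox7c, Rpl32 and Tia1, and Hba-a1 has RNA at 966 and 949 CPM but no peak.

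Among genes with high RNA, few lacked a peak anywhere in the window. Of all genes, 29.9% had no H3K9ac peak in either library, 29.8% no H3K9cr peak and 31.2% no H3K18la peak. Of 4782 genes with at least 50 CPM in both RNA libraries, 12 (0.251%) had no H3K9ac peak, 11 (0.23%) no H3K9cr peak and 52 (1.09%) no H3K18la peak in either library. The same 11 genes (0.23%) had no peak of any mark in the window, though at some of them a peak lay not far beyond it. These counts depend on the window: with peaks near gene ends only they were 162, 169 and 218, and with only peaks that touched 1 gene window 956, 957 and 927. They were Hba-a1, Hba-a2, Hbb-bs, Hbb-bt, Hbb-y, Zfp652, Eno1b, Rps27rt, Ppp2r3d, Plekhn1 and Sap18b. None of the 11 had an ATAC-seq peak in both libraries, against 84.6% of genes of at least 10 CPM that did. At E16.5, 10 of them still had at least 1 CPM in both libraries. Tmem181a had no H3K9ac or H3K18la peak in either library, and an H3K9cr peak, of 10.7, in library 1 only.

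Among these 11, 5 were globin genes of red blood cells. Hba-a1 (ENSMUSG00000069919.7, chr11:32283672-32284486), an α-globin, had 966 and 949 CPM, and its nearest peak of any mark lay 15193 to 15438 bp away. The β-globins Hbb-bs, with 353 and 269 CPM, and the embryonic Hbb-y, with 312 and 367 CPM, had no peak within 365692 bp. At E16.5 Hbb-y stood at 0.856 and 1.28 CPM. The 11 genes of the erythroid list summed to 1893.0 and 1877.4 CPM, yet 9 had no peak of any one mark and 2 were marked. The 5 globins belong both to this list and to the 11 outliers, so their lack of a peak was set by the rule that chose them. The part of red blood cells in the outliers was not tested.

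The other genes without a peak included near-identical copies, where counts are uncertain. Rps27rt, a copy of Rps27, had 86.3 and 82.7 CPM and no peak, whereas Rps27 itself had 3.40 and 3.27 CPM with H3K9ac values of 54.1 and 63.9. Eno1b had 143 and 140.2 CPM and no peak, and Eno1, the glycolytic enolase, 145 and 157 CPM with H3K9ac values of 39.3 and 52.0. The sources used here do not say how reads were divided between these copies. Zfp652, a zinc finger gene, had 184 and 178 CPM, and its nearest peak lay between 27466 and 31804 bp from its span. Eno1b had no peak within 24279 bp and Ppp2r3d none within 47732 bp. At 3 genes, peaks of every mark lay closer to the 2 kb flank. The distances were 2921 to 3879 bp for Rps27rt, 4919 to 6396 bp for Plekhn1 and 6734 to 6748 bp for Sap18b.

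Genes with RNA and both H3K9 marks but less complete H3K18la were more frequent. Of the 9728 genes of at least 10 CPM, 9259 had all 3 marks in both libraries, with a median of 52.0 CPM. In another 390, H3K9ac and H3K9cr were present in both libraries and H3K18la was not, with a median of 32.8 CPM. H3K18la had a peak in 1 library at 240 of these and in neither at 150. The 52 genes of at least 50 CPM without H3K18la included 41 with some H3K9 mark. Eif3c (ENSMUSG00000030738.11, chr7:126546911-126566366), a subunit of translation initiation factor 3, had 272 and 273 CPM, H3K9ac values of 24.4 and 39.4 and H3K9cr values of 51.4 and 44.0. Its H3K9ac width of 1741 and 1312 bp ranked at 0. Eif3f and Eif3l, subunits of the same factor, and Api5, an inhibitor of apoptosis, were alike, with H3K9ac values of 45.9 and 37.7 for Eif3f, of 52.1 and 53.0 for Eif3l and of 30.5 and 26.4 for Api5. ATAC-seq peaks in both libraries were present at 21 of the 52, against 84.6% of genes of at least 10 CPM. All 21 were among the 41 with an H3K9 mark, since the 11 genes without any mark had 0. The rule asks for no peak in either library, and the count was 109 without H3K18la library 2 and 74 without library 1.

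Weak marks at high RNA were rare for H3K9 and more common for H3K18la. Of genes with at least 100 CPM in both RNA libraries, 1 was in the lowest 10% of H3K9ac fold enrichment in both libraries, 0 in that of H3K9cr and 14 in that of H3K18la. The lowest 10% in both libraries held 7.1%, 7.1% and 3.44% of the genes marked in both. The H3K9ac gene was 9330159F19Rik, with 125 and 126 CPM and values of 6.15 and 7.46. H3K18la genes were led by Ehmt2, an H3K9 methyltransferase, with 385 and 389 CPM and values of 3.56 and 3.76 over 261 and 507 bp. Next came Pgam1, the translation regulator Gcn1, Sbf1 and Ankrd52. Gcn1 had 234 and 233 CPM and H3K18la values of 2.44 and 4.21, while its H3K9ac values were 37.5 and 44.5. By width, 1 gene each was in the lowest 10% for H3K9ac (Kifap3, 879 and 842 bp) and H3K9cr (Setdb1, 520 and 221 bp), and 20 for H3K18la, among them Ehmt2, Gcn1 and Larp1. The lowest 10% of width in both libraries held 6.71%, 6.9% and 3.94% of genes marked in both. All 14 and all 20 H3K18la genes carried an H3K9 mark.

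By fold enrichment, strong H3K9 peaks in the windows of silent genes were all shared with an expressed neighbour, while strong H3K18la peaks were shared at 5 of 13 genes. Genes under 0.1 CPM in both RNA libraries but in the top 10% of fold enrichment in both mark libraries were counted. There were 7 with H3K9ac, 6 with H3K9cr and 13 with H3K18la, where 5.04%, 5.18% and 4.98% of all genes were in the top 10%. All 7 and all 6 shared the peak with a gene of at least 1 CPM. Msmb (ENSMUSG00000021907.13, chr14:32142023-32158327), a gene of secretory glands, had 0 counts and H3K9ac values of 119 and 143. Its peak, at chr14:32159147-32161209 in library 1, covered the lower end of Ncoa4, a ferritin receptor gene with 77.0 and 81.7 CPM. Stkld1 likewise shared its peak, of 101.5 and 97.5, with Surf4. With only peaks that touched 1 gene window, the count for H3K9ac was 0, and without RNA library 1 or 2 it was 11 or 12. That for H3K9cr was 1 with such peaks and 10 without RNA library 2.

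For H3K18la, 8 of the 13 genes shared no peak with another protein-coding gene of at least 1 CPM. Among the 8, the histone gene H2bc3 shared its peak with H3c3, at 0.703 CPM, and a low histone count need not mean little RNA. Tnni3k (ENSMUSG00000040086.13, chr3:154786291-155055407), a cardiac kinase gene, had 0 counts at both stages but H3K18la values of 33.9 and 37.6, a width of 15442 and 14719 bp and H3K9ac values of 39.2 and 39.2. Its strongest H3K18la peak in library 1, chr3:154815059-154820103, lay inside the gene span. Sgca, a sarcoglycan gene of muscle with 0 counts, had H3K18la values of 39.1 and 30.4 and H3K9ac values of 55.6 and 55.4, from peaks that lay just outside its span. Gpr142 had the largest value of all silent genes, 62.9 and 59.5, at 0.0586 and 0 CPM, but its peak was shared with Btbd17, at 27.2 and 27.9 CPM. H3K9ac on Gpr142 was only 4.36 and 4.80, from another peak. Of the 13 genes, 9 had ATAC-seq peaks in both libraries, against 53.9% of all genes, and none reached 1 CPM at E16.5. The count was 22 without H3K18la library 2 and 24 without RNA library 2.

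By width, 5 silent genes were in the top 10% for H3K9ac, 5 for H3K9cr and 17 for H3K18la, where 6.22%, 6.07% and 6.12% of all genes were. No peak was shared with a gene of at least 1 CPM at 14 of the 17 H3K18la genes. The same held for 2 of the 5 H3K9ac genes and 1 of the 5 H3K9cr genes. Lrmda, a gene of melanocytes with a very long span, had 0 counts and 72513 and 64039 bp of H3K18la, and Pebp4 had 37264 and 37741 bp. Their highest H3K18la values were 12.9 and 12.2 for Lrmda and 9.99 and 9.995 for Pebp4. Gm37013, whose long span includes protocadherin gamma genes, was in the top 10% of width for all 3 marks and spans other genes that are expressed.

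ATAC-seq and later RNA were readouts that the choice of silent genes did not use. Of 5516 genes under 0.1 CPM in both RNA libraries, 507 had H3K9ac in both libraries, and 47.1% of these had ATAC-seq peaks in both, against 2.39% of the 4853 without H3K9ac. For H3K9cr the shares were 46.8% and 2.41%, and for H3K18la 39.6% and 1.74%. Among marked silent genes that shared no peak with a gene of at least 1 CPM, the shares were 39.1%, 38.5% and 32.4%. Both calls take a peak anywhere in the window, which grows with gene span. Olfactory receptor genes, 1099 of 1101 without H3K9ac in either library, had a median span of 949 bp. Genes with 0 counts marked by H3K9ac had 17333 and 18611 bp. The part of window length in these shares was not tested. Later expression was rare in silent genes with and without H3K9ac. At E16.5, 1 of the 507 genes with H3K9ac reached 1 CPM in both libraries, and 4 of the 4853 without it did. The former was Fxyd1, a regulator of the sodium pump, which went from 0 and 0.0541 to 1.71 and 1.64 CPM. Gfap, the astrocyte filament gene, carried weak H3K9cr of 4.90 and 6.96 at 0.0586 and 0.0541 CPM, and stood at 1.48 and 1.89 CPM at E16.5.

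Hox and olfactory receptor genes were seldom marked. Of 39 Hox genes, 2 had H3K9ac, 0 H3K9cr and 3 H3K18la in both libraries, against 67.9%, 68.1% and 64.1% of all genes. Genes with 0 counts are the nearer comparison. In the 2 libraries, H3K9ac marked 8.12% and 7.71% of these, H3K9cr 8.45% and 7.48%, and H3K18la 10.9% and 10.5%. The Hox counts for H3K9ac and H3K18la lie near those shares, so they are not read as a trait of Hox genes. Hoxa9 was 1 of the 2 Hox genes with H3K9ac, with 0 counts and H3K9ac values of 5.05 and 5.06. Of 1101 olfactory receptor genes, 1, 2 and 1 were marked. Of 20 regulators of posterior and non-neural tissues, 4, 4 and 5 were marked, led by Lmx1b for H3K9ac, while Gata4 had no peak of any mark. Markers of other cells in the tissue were counted too. Of 10 microglia genes, summing to 53.5 and 52.4 CPM, 0 had H3K9ac or H3K9cr and 3 H3K18la. Of 10 endothelial genes, summing to 195 and 208 CPM, 5, 6 and 4 were marked. Of the 7 with at least 10 CPM, 4, 4 and 3 were marked, against 99.2%, 99.2% and 95.3% of all genes of that level. Median fold ranks of these 7 were 1.25, 4 and 4.75, so the list was low for every mark. The highest of the list in H3K18la was Pecam1, an endothelial adhesion gene at 15.1 and 16.8 CPM. It had H3K18la values of 24.7 and 24.1, a rank of 97.5, whereas Cldn5, of the vessel barrier, had no H3K18la peak.

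Promoter sequence was a further readout outside the choice of genes, taken from the 300 bases around the RefSeq start. The median number of CG dinucleotides was 14 over all genes with a listed promoter, 2 in genes with 0 counts, 22 at 10 to 100 CPM and 25 at 100 CPM and over. Genes of at least 50 CPM had 24, but those without H3K9ac had 4.5 and those without H3K9cr 4, over 10 of 12 and 9 of 11 genes with a listed promoter. Genes of that level with both H3K9 marks in both libraries and no H3K18la had 26, over 35 of 39. Among marked genes of at least 10 CPM, the number of CG dinucleotides correlated with H3K9ac fold enrichment at 0.082 and 0.069 and with that of H3K18la at -0.013 and -0.006. The letters TATAAA, on either strand, were present in 14.6% of all promoters, 29.4% of those of genes with 0 counts and 7.73% of those of at least 10 CPM. Fewer than 80% of the ribosomal, oxidative phosphorylation, neuron identity, inhibitory, synapse and erythroid lists, and of the low and wide and the tall and narrow genes of the H3K9 marks, had a listed promoter, so the check is void for them.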

How the data were processed

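Per the submitters' processing notes, the authors used Salmon 1.1.0 for RNA and Bowtie2 2.4.1 with MACS2 2.2.7.1 for ChIP-seq and ATAC-seq, with GRCm38. The deposited RNA table holds estimated counts per gene, of which 24.4% in each E13.5 library were not whole. They were scaled to CPM by the total count of each library and averaged over the 2 libraries. Deposited peak lists, per the file headers, give for each peak of 1 library the fold enrichment, the pileup signal and the −log10 q of MACS2. Which control and cut-offs the caller used was not stated for each list, and the lowest −log10 q in a list was about 2. Gene identifiers were joined to RefSeq symbols through the Entrez column of the authors' deposited DESeq2 1.26.0 table, of which no fold change or p-value was used. Of 21900 protein-coding genes, 21197 had a counted identifier. Among these, 23 were left out for several identifiers and 328 because that table does not call them protein-coding.

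Peaks were assigned to gene windows in Python 3.11.15 with numpy 2.4.6 and pandas 2.3.3, and the assignment was checked against bedtools 2.31.1 on simulated data. Spearman correlations and exact permutation tests used scipy 1.17.1, and plots matplotlib 3.10.9. Library-specific values were kept apart, and a share or rank needs both libraries where the text says so. Named were, per mark, the 5 genes with the highest fold enrichment and width and up to 5 strongly marked silent genes. Up to 5 weakly marked genes with high RNA, up to 10 without a peak, the 10 with the highest RNA, the extremes of each list and a few chosen genes were added. The members and lists were chosen with earlier results of these data known. The alternatives tried were other windows, peak thresholds, peak sets, RNA filters and width measures, pairing, and leaving out each library. Some items are not reported here.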

Additional observations from a re-analysis of the deposited data

How the results depend on the processing

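Values are in the order H3K9ac, H3K9cr, H3K18la unless named. The correlation of fold enrichment with RNA stayed positive in every alternative run, and so did that of width. Fold correlations were 0.835, 0.832 and 0.708 with unmarked genes as 0, and 0.566, 0.548 and 0.295 over genes of at least 1 CPM. They were 0.702, 0.691 and 0.397 with peaks touching 1 gene window, 0.622, 0.614 and 0.315 at a −log10 q of at least 5, and for H3K9ac and H3K18la 0.613 and 0.241 with equal numbers of peaks. For H3K9ac and H3K9cr they were 0.586 and 0.581 near gene ends, 0.653 and 0.644 with no flank, and 0.625 and 0.615 near start sites. Leaving out a library gave 0.629 to 0.636, 0.618 to 0.630, and 0.334 to 0.377. Width correlations under the first 2 settings were 0.802, 0.811 and 0.661, and 0.444, 0.466 and 0.159. They were 0.593 and 0.623 for the H3K9 marks with peaks of 1 window, 0.532, 0.553 and 0.188 at the stricter q, and 0.526, 0.558 and 0.140 with equal numbers. Near gene ends H3K9ac and H3K18la had 0.548 and 0.277, and with no flank H3K9cr and H3K18la had 0.561 and 0.181. The longest peak gave 0.597, 0.611 and 0.252, the share of the window 0.239, 0.233 and 0.111, and start sites 0.600, 0.608 and 0.324. Leaving out a library gave 0.536 to 0.540, 0.560 to 0.562, and 0.200 to 0.230. The pileup gave values within the spread of the libraries.

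Silent genes with a strong mark numbered 0, 1 and 8 with peaks of 1 window, and 8 to 12, 7 to 10 and 17 to 24 when a library was left out, since fewer libraries then had to pass. Genes of at least 50 CPM without a peak numbered 162, 169 and 218 near gene ends, and 956, 957 and 927 with peaks of 1 window, where fewer peaks were counted. There were 80 for H3K18la at the stricter q. Leaving out a library gave 13 to 14, 11 to 13 and 56 to 109. The stage difference in fold correlation was 0.069 to 0.076, 0.062 to 0.074 and 0.016 to 0.058 without a library. In width it was 0.002 to 0.009, 0.020 to 0.032 and -0.028 to 0.002, the sign of H3K18la turning without its E13.5 library 1. Paired by replicate number (replicate block), the stage differences were the same, at 0.073, 0.068 and 0.037 for fold and 0.006, 0.026 and -0.013 for width. The exact two-sided sign-flip permutation test gave p = 0.500, the smallest that 2 pairs allow, except for H3K18la width, whose pairs differed in sign. The labels do not say that a number pairs libraries of different stages.

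The medians of list ranks crossed 50 in 16 of 360 alternatives. With neighbours matched on span and not on RNA, the fold rank was 56.5 for neuron identity in H3K9ac, and 42.5 for synapse and 58.5 for ribosomal genes in H3K18la. Width ranks in that setting were 64.5 and 69 for cell cycle genes in the H3K9 marks, 56.5, 55 and 54.5 for ribosomal genes and 65.5, 68 and 51.5 for glycolysis. Glycolysis width was 56 in H3K9ac and 52 in H3K18la with RNA and span matched, 50.5 for the longest H3K18la peak and 47 to 50.5 in H3K9cr when a library was left out. The inhibitory fold rank in H3K18la was 43.6 without replicate 1. The cause of these shifts was not tested.

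Start-site windows, the list rank alternatives, the stage alternatives and pairing were chosen after seeing the data. Scaling RNA by upper quartile moved no call, and CPM per kb of coding length was not run. Depth behind the peak lists is unknown, so an absent peak is one not called.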

Other observations

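Imprinted genes, which are expressed from 1 parental copy, were listed after values had been seen, so their values are a description. Of 22 genes, 19 had H3K9ac, 21 H3K9cr and 18 H3K18la in both libraries, where 99.2%, 99.2% and 95.3% of all genes of at least 10 CPM were marked. Over the 21 with at least 10 CPM, the median fold rank among genes of like RNA was 5 for both H3K9 marks and 40 for H3K18la, while the width ranks were 71, 69 and 59. Cdkn1c, an inhibitor of cell division, had 104 and 90.03 CPM and H3K9ac values of 11.7 and 11.6. Dlk1, a Notch-like ligand, had 60.6 and 68.4 CPM and 10.5 and 11.2. Both stood far below the median H3K9ac value of 48.3 and 44.5 for genes of at least 10 CPM. Igf2, the growth factor, had 47.7 and 57.7 CPM and no peak of any mark. Ube3a, a ubiquitin ligase imprinted in neurons, stood high, with H3K9ac values of 99.4 and 93.0.

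Histone genes were often marked at low counts. Of 67 core and linker histone genes, 63 had H3K9ac, 62 H3K9cr and 60 H3K18la in both libraries. Of all genes, 67.9%, 68.1% and 64.1% did. The median level of the histone genes was 0.20 CPM, and only 3 had at least 10 CPM. Of genes at 0.1 to 1 CPM, 62.8% and 60.2% were marked by H3K9ac in the 2 libraries, and 53.9% and 54.8% by H3K18la. The labels do not say how the RNA was selected, so a low histone count need not mean little RNA. Over the histone genes marked in both libraries, the median H3K9ac fold enrichment was 44.1 and 41.4, against 39.98 and 36.5 over all genes so marked. For H3K18la it was 12.9 and 15.8, against 7.91 and 8.83. Many of these genes are neighbours and share peaks. H4c8, a histone H4 gene, stood at 0.176 and 0.216 CPM with H3K9ac values of 90.5 and 135 and H3K18la values of 45.2 and 50.1. Its neighbour H2ac10 shared that H3K9ac peak. ATAC-seq peaks in both libraries were present at 30 of the 67, against 53.9% of all genes. TATAAA was found in 54.8% of 62 histone promoters, against 14.6% of all promoters.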
